A study of Mus musculus with 56 samples.

Results

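The genes described here are 34 mouse genes of the endoplasmic reticulum (ER) protein folding machinery and of the stress response that serves it. They were taken by name from the 20314 genes of the deposited table, and all 34 were present. They were grouped by role into 14 chaperones and folding enzymes of the ER, 6 genes for the degradation of misfolded ER proteins, 2 retrieval receptors, 4 sensor genes and transcription factors, and 8 genes made up of Atf4 and targets of its protein. The chaperones were described apart from the ATF4 targets throughout.

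The cells were breast cancer cell lines from mammary tumors of MMTV-PyMT mice (FVB/N strain), in which the polyoma middle T oncogene is driven by a promoter active in the mammary epithelium. The 7 genotypes of β-catenin were fl/fl, D164A/fl, D164A/-, ΔC/fl, ΔC/-, dm/fl and dm/-. A floxed (fl) allele codes for wild-type β-catenin until Cre recombinase removes it, so fl/fl is the wild-type group, a /fl line holds a mutant and a floxed allele, and a /- line holds the mutant allele alone. D164A is a point mutation that prevents the binding of the coactivators Bcl9 and Bcl9L, and the sources used here do not spell out ΔC or dm. The study describes D164A/- lines made by infection with an adenovirus carrying Cre and GFP and sorted for GFP, and gives no such account for ΔC/- and dm/-. Each line was treated with Wnt3a (100 ng/ml, 3 days) or TGFβ (2 ng/ml, 4 days), each beside untreated cells kept for the same time. This gave 28 conditions with 2 biological replicates each, 56 libraries in all. The labels do not say whether replicates are separate lines or separate cultures, so the p-values measure only the spread between these samples, and genotype cannot be told apart from the particular cell line.

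The ER folds secreted and membrane proteins with the help of chaperones such as BiP (Hspa5), GRP94 (Hsp90b1) and the lectins calnexin (Canx) and calreticulin (Calr). When unfolded proteins accumulate, the unfolded protein response is set off by the membrane sensors IRE1 (Ern1), PERK (Eif2ak3) and ATF6 (Atf6). IRE1 splices Xbp1 mRNA, and spliced XBP1 and cleaved ATF6 turn on chaperone and degradation genes. PERK phosphorylates eIF2α, which slows translation and lets ATF4 protein be made. Other kinases phosphorylate eIF2α as well, for example when amino acids run short, so ATF4 targets can be induced apart from the chaperones. Secretory cells such as those of the mammary gland rely on this machinery.

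The promoters differed in the motifs they held, and the stretches below are shown because they carry the sequence difference between chaperones and ATF4 targets. They were read from RefSeq promoter windows of 300 bases on GRCm38.p6, in which 29 of the 34 genes were matched, and are written in the direction of transcription with the motif in capitals. The ER stress response element (ERSE), CCAAT and CCACG with 9 bases of any kind between them, was searched on both strands and stood in the windows of 7 of 12 chaperones (Calr, Canx, Creld2, Dnajc3, Hsp90b1, Hspa5 and Pdia6), 2 of 5 degradation genes (Derl3 and Syvn1) and 0 of 8 ATF4 genes, beside 0.137% of all 27025 windows. The related ERSE-II, ATTGG and CCACG with 1 base of any kind between them, stood in Dnajb11 and Herpud1, beside 0.0444% of all windows.
Hspa5, chr2:34772015-34772053, plus strand, 65 to 47 bases before the start: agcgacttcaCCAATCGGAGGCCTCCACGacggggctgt
Calr, chr8:84847065-84847103, minus strand, 162 to 144 bases before the start: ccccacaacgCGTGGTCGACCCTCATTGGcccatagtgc
Pdia6, chr12:17266481-17266519, plus strand, 98 to 80 bases before the start: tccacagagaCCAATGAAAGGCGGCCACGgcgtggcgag
Hsp90b1, chr10:86705523-86705666, minus strand: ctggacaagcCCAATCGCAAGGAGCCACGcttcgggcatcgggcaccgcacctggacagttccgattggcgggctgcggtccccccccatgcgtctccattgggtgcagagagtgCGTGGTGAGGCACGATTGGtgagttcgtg
The Hsp90b1 stretch holds 2 ERSE copies, of which the second reads on the opposite strand, as does the copy of Calr.

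The C/EBP-ATF response element (CARE), TGATGNAAN, to which ATF4 binds, was likewise searched on both strands. It stood in 4 of 8 ATF4 windows (Asns, Atf3, Chac1 and Trib3), in Herpud1 and in no chaperone, beside 4.5% of all windows. A core of the unfolded protein response element, TGACGTGG, stood in Kdelr3, beside 0.714% of all windows. It overlaps in part with the cyclic AMP response element TGACGTCA, which stood in Ppp1r15a, beside 2.03%. These matches describe letters in a window and nothing about binding.
Asns, chr6:7693214-7693242, minus strand, 23 to 15 bases before the start: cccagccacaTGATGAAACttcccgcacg
Chac1, chr2:119351038-119351066, plus strand, 194 to 186 bases before the start: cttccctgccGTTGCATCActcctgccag
Atf3, chr1:191183426-191183454, minus strand, 111 to 103 bases before the start: ccttctcgcaCTTGCATCAccaagtccgc
Herpud1, chr8:94386306-94386397, plus strand, CARE and then ERSE-II: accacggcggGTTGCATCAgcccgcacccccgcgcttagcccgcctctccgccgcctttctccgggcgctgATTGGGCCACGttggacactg
Kdelr3, chr15:79516368-79516395, plus strand, 30 to 23 bases before the start: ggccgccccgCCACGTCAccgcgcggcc

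The deposited values are read counts per gene scaled to a common library size, a unit given as CPM. Libraries held 22.4 to 33.7 M reads (median 26.8 M), so that 3 reads equal 0.0917 to 0.146 CPM. Axin2, a Wnt target, rose with Wnt3a in 6 of 7 lines, by a log2 difference of 2.84 in ΔC/- to 5.98 in D164A/fl, and stood at 0.0791 CPM or less in all dm/- libraries, treated ones included (difference 0.05, adjusted p = 1.0). Ctnnb1, which codes for β-catenin, ranged from 531 to 3188 CPM. Its mRNA cannot check the deletion, because the mutant allele is transcribed too. The epithelial marker sum was 1185 to 8284 CPM over the 56 libraries. The fibroblast sum of 7 genes was 5.58 to 745 CPM, from Pdgfra and Pdgfrb above all, while the defining fibroblast genes Lum and Thy1 were at 3 reads or fewer in all 56. The immune sum of 6 genes was 1.27 to 533 CPM, from Csf1r and Cd68, while Adgre1 and Cd3e were at 3 reads or fewer in all 56 and Ptprc in 54. In such bulk samples fewer cells of a type and less RNA per cell cannot be told apart. The library of untreated dm/fl cells at 3 days, replicate 1, stood apart, with a best correlation of 0.899 to any other library beside 0.952 or more for the others. It held the lowest level of all 56 libraries for 10 members, among them Pdia3, Pdia4, Canx, Edem1 and Xbp1, and the differences of dm/fl from fl/fl and from dm/- are also given without it. It also had the steepest trend with transcript GC content (log2 slope 2.02 per 10% GC). Next came dm/- Wnt3a replicate 2 (slope 1.40, replicate correlation 0.896). That library held the highest Trib3, Atf4, Chac1, Asns and Sesn2 and the lowest Hspa5, Hsp90b1 and Dnajc3. Transcripts of ATF4 genes held 49.8 to 58.7% GC and those of chaperones 42.2 to 56.7%. With GC trends removed, 93 of 103 named results kept their side of the threshold.

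The chaperones were among the more abundant transcripts. Across the 56 libraries Hspa5, which binds exposed hydrophobic stretches of unfolded proteins, ranged over 307 to 2860.4 CPM, median 929.7, and Hsp90b1, the ER member of the HSP90 family, over 184 to 2339.7 CPM, median 853. The lectin chaperones of glycoproteins ranged over 393 to 2141 CPM, median 1022 for Calr and 189.9 to 1277 CPM, median 771 for Canx. Among the protein disulfide isomerases, Pdia3, the partner of both lectins, ranged over 173 to 1477 CPM, median 724, Pdia4 over 88.0 to 608 CPM, median 261 and Pdia6 over 147 to 551 CPM, median 292. The cochaperones of BiP were lower. Dnajb11 ranged over 58.2 to 308 CPM, median 151, Dnajc3, an inhibitor of eIF2α kinases, over 13.2 to 219 CPM, median 80.4, and Dnajb9 over 1.63 to 46.9 CPM, median 20.1. Hyou1, an exchange factor for BiP, ranged over 148 to 570.3 CPM, median 284, and Manf, a secreted stress-induced factor, over 23.0 to 234 CPM, median 111. Creld2 ranged over 23.9 to 113 CPM, median 45.9 and Sdf2l1 over 9.28 to 61.9 CPM, median 18.7, both small ER proteins induced by stress.

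Sel1l and Syvn1, the adaptor and the ubiquitin ligase of the same membrane complex, ranged over 100.3 to 315 CPM, median 203 and 33.2 to 190.1 CPM, median 66.4. Edem1, which directs misfolded glycoproteins to degradation, ranged over 55.8 to 375 CPM, median 132, Derl1, a membrane protein of the retrotranslocation step, over 85.2 to 323 CPM, median 158, and Herpud1, a stress-induced cofactor, over 22.5 to 133 CPM, median 45.5. Derl3 was listed at no more than 0.0981 CPM, 3 reads or fewer in all 56 libraries, and was the only member that did not pass the filter on low values. The receptors that return escaped chaperones to the ER ranged over 67.9 to 317 CPM, median 131 for Kdelr2 and 4.63 to 53.0 CPM, median 11.5 for Kdelr3. Xbp1 ranged over 54.2 to 566 CPM, median 117, Atf6 over 69.1 to 451 CPM, median 152, Eif2ak3 over 32.7 to 162 CPM, median 59.1 and Ern1 over 22.1 to 145 CPM, median 41.2.

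Among the ATF4 genes, Atf4 itself ranged over 210.4 to 1458 CPM, median 474, and Asns, which makes asparagine, over 94.7 to 1337 CPM, median 248. The pseudokinase Trib3 ranged over 10.7 to 711 CPM, median 86.7, and Ddit3, which codes for the transcription factor CHOP, over 4.03 to 214 CPM, median 22.3. Ppp1r15a, the regulatory subunit that has eIF2α dephosphorylated, ranged over 10.6 to 653 CPM, median 43.4. The glutathione-degrading enzyme Chac1 ranged over 4.79 to 184 CPM, median 21.7, the transcription factor Atf3 over 4.48 to 156 CPM, median 22.3 and the stress-induced Sesn2 over 11.8 to 114 CPM, median 32.5. Per kilobase of transcript the highest medians were those of Calr (468 CPM per kb), Hsp90b1 (302), Atf4 (275), Pdia3 (261) and Hspa5 (248). The SD between the replicates of a condition, on the log2 scale, was 1.04 for Ddit3, 1.03 for Ppp1r15a, 0.997 for Trib3, 0.974 for Atf3 and 0.840 for Chac1, beside 0.717 for Hsp90b1, the next of the members, and a median of 0.371 over all genes tested. These 5 ATF4 targets lay at percentile 97.1 of all genes or above, while Derl1 lay at 8.91 and Eif2ak3 at 6.51.

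To compare the lines, the 4 untreated libraries of each line, 2 of each time, were set against those of fl/fl. All 6 comparisons share the fl/fl libraries. Differences are given as log2 of CPM + 1, and a gene was called at an adjusted p of 0.05 or less. The level differed between the 7 lines for 27 of the 33 tested members, beside 75.5% of all genes. Of the 198 member-by-line pairs 61 were called, 14 higher and 47 lower than in fl/fl, where 34.6% of all gene-by-line pairs were called, 18.2% higher and 16.4% lower. The lower calls were 23.7% and the higher calls 7.07% of the member pairs. The chaperones were called lower in 21 of 84 pairs and higher in 0 of 84, with a median difference of -0.39. The ATF4 genes were called higher in 8 and lower in 8 of 48 pairs, with a median of 0.07. Degradation genes were called higher in 3 and lower in 7 of 30 pairs, retrieval receptors in 1 and 5 of 12, and sensor genes in 2 and 6 of 24. Over all genes the 3-day differences from fl/fl rose with transcript GC content in all 6 lines (Spearman correlation 0.30 to 0.65). At 4 days the correlations were -0.34 to 0.09. With GC trends removed, the chaperone calls that were checked, up to the 3 largest of each line, were kept. The counts by role are not given for that fit. Markers of other cell types also differed between the lines. The fibroblast sum was 5.58 to 13.0 CPM in fl/fl, 8.29 to 9.98 CPM in ΔC/- and 6.56 to 11.05 CPM in dm/-, but 54.3 to 105 CPM in the D164A lines, 107 to 745 CPM in ΔC/fl and 125 to 537 CPM in dm/fl. The immune sum was 52.9 to 75.4 CPM in fl/fl, 1.27 to 5.59 CPM in the D164A lines, 4.38 to 80.7 CPM in the ΔC lines, 292 to 533 CPM in dm/fl and 42.7 to 88.0 CPM in dm/-. Their part in these differences was not tested.

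**Figure D1:**
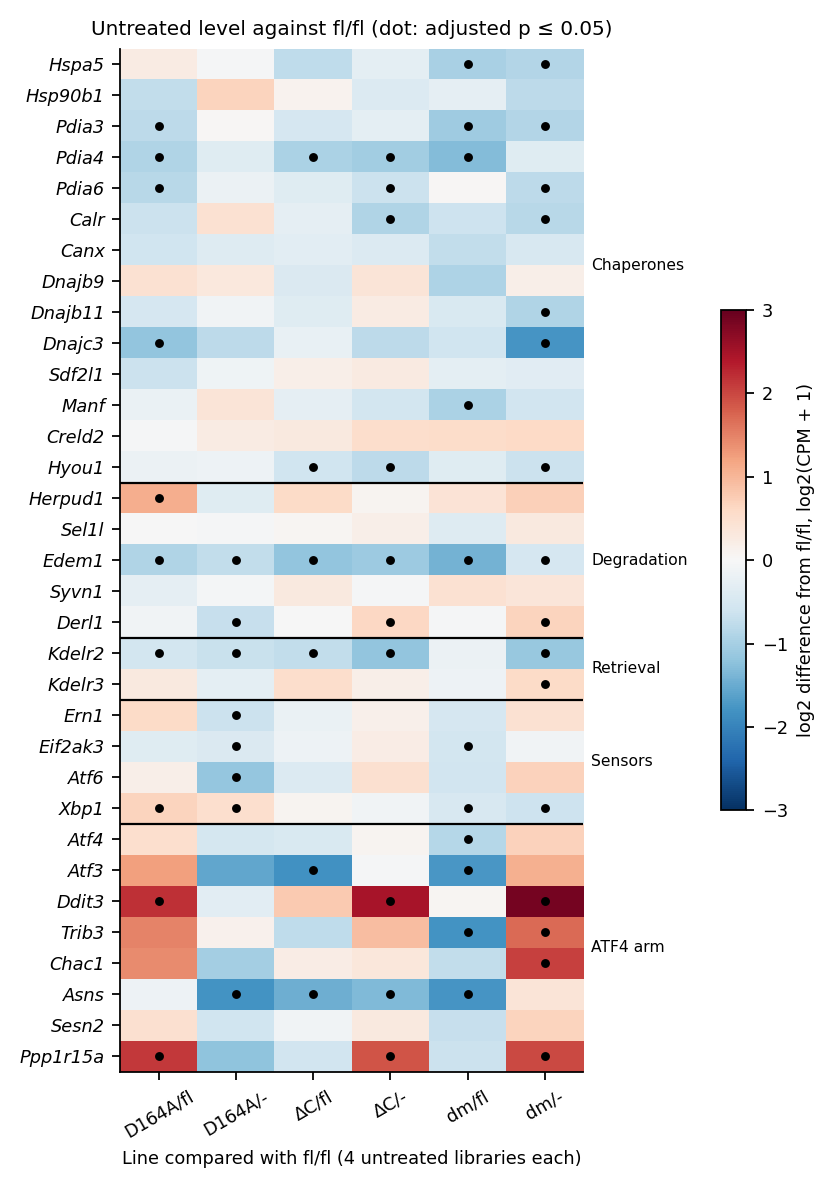
Difference of each untreated mutant line from fl/fl (columns) for the 33 tested members, grouped by role (horizontal bands), as log2 difference of CPM + 1 in color, from 4 libraries per line; a dot marks an adjusted p of 0.05 or less. The chaperones carry 21 dots, all on the lower side, while the ATF4 genes carry dots on both sides, 8 higher and 8 lower.

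Edem1 was lower than in fl/fl in all 6 mutant lines. Its 4 untreated libraries in the order 3 days replicates 1 and 2, then 4 days replicates 1 and 2, held 299, 289, 176 and 241 CPM in fl/fl. The same 4 held 55.8, 131, 95.4 and 96.8 CPM in dm/fl, 129, 105, 102 and 97.9 CPM in ΔC/fl and 186, 154, 161 and 192 CPM in dm/-. The ranges of fl/fl and of dm/fl or ΔC/fl did not overlap, and that of dm/- overlapped with fl/fl. The differences ran from -1.43 in dm/fl (SE 0.16, adjusted p = 1.5e-08) over -1.18 in ΔC/fl, -1.10 in ΔC/-, -0.91 in D164A/fl and -0.75 in D164A/- to -0.51 in dm/- (adjusted p = 0.016). Those of 5 lines held without any single library, and that of dm/- was lost without any of 3 of its 8 libraries (adjusted p = 0.11 without fl/fl 4 days replicate 2). Without the library that stood apart the dm/fl difference was -1.13.

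Pdia4 was lower than in fl/fl in 4 lines. It stood at 419, 462, 267 and 409 CPM in fl/fl, 168, 224, 178 and 171 CPM in ΔC/- and 239.7, 185, 173 and 193 CPM in ΔC/fl. All ΔC values lay below all fl/fl values. The differences were -0.90 in D164A/fl, -0.96 in ΔC/fl, -1.05 in ΔC/- and -1.30 in dm/fl (SE 0.19, adjusted p = 0.00027 or less), and each held without any single library, that of dm/fl at -1.01 without the one that stood apart. In D164A/- (difference -0.37, adjusted p = 0.14) and dm/- (-0.36, adjusted p = 0.14) it was not called.

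The other chaperones were lower in fewer lines. Dnajc3 was lower in dm/- (-1.78, adjusted p = 0.00012) and D164A/fl (-1.19, adjusted p = 0.0081). It held 161, 219, 78.6 and 136 CPM in fl/fl and 43.3, 28.3, 43.5 and 48.0 CPM in dm/-, without overlap. The D164A/fl call was lost without fl/fl 4 days replicate 2 (adjusted p = 0.060). Pdia3 was lower in D164A/fl, dm/fl and dm/- (-0.79, -1.07 and -0.89), and Hspa5 in dm/fl and dm/- (-0.98 and -0.87). Without the library that stood apart, Pdia3 in dm/fl was at -0.57 (adjusted p = 0.041) and Hspa5 was no longer called (-0.69, adjusted p = 0.12). Within the 4-day libraries, which do not include it, the dm/fl differences were -0.23 for Pdia3 (adjusted p = 0.76) and -0.38 for Hspa5 (adjusted p = 0.63). The other Pdia3 calls were lost without any of 4 libraries in D164A/fl and without 1 in dm/- (up to adjusted p = 0.16 and 0.084), and that of Hspa5 in dm/- without any of 4 (up to 0.17). Calr was lower in ΔC/- (-0.90) and dm/- (-0.83), and these calls were lost without any of 4 and 5 of the 8 libraries. In D164A/- none of the 14 chaperones was called by limma or edgeR, and 1 had an unadjusted p under 0.05.

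Among the degradation genes, Derl1 was lower in D164A/- (-0.69, adjusted p = 0.00027) and higher in ΔC/- (0.61, adjusted p = 0.00091) and dm/- (0.66, adjusted p = 0.00048). Its libraries held 172, 154, 158 and 148 CPM in fl/fl, 92.2, 125, 92.8 and 85.2 CPM in D164A/- and 292, 283, 224 and 212 CPM in dm/-, and neither range overlapped with fl/fl. Herpud1 was higher in D164A/fl (1.08, adjusted p = 0.0057), a call lost without fl/fl 3 days replicate 2 (adjusted p = 0.055). Kdelr2 was lower in 5 lines. It held 202, 202, 157 and 214 CPM in fl/fl, 67.9, 148, 71.6 and 69.5 CPM in ΔC/- and 85.9, 115, 77.5 and 75.6 CPM in dm/-, again without overlap. The differences were -1.18 in ΔC/- and -1.13 in dm/- (SE 0.21 for both), and -0.73, -0.66 and -0.55 in ΔC/fl, D164A/- and D164A/fl. The D164A/- call was lost without fl/fl 4 days replicate 2 (adjusted p = 0.082), that of D164A/fl without any of 6 libraries (up to adjusted p = 0.22), and with GC trends removed the 3 smaller differences had an adjusted p of 0.098 to 0.27. Kdelr3 was higher in dm/- alone (0.58, adjusted p = 0.047), and this call was lost without any of 7 of the 8 libraries.

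Xbp1 was higher in both D164A lines and lower in both dm lines. It held 116, 121, 83.9 and 123 CPM in fl/fl, 135, 139.5, 174 and 184 CPM in D164A/- and 79.7, 75.8, 54.8 and 75.6 CPM in dm/-. All D164A/- values lay above and all dm/- values below those of fl/fl. The differences were 0.66 in D164A/fl, 0.51 in D164A/-, -0.47 in dm/fl and -0.63 in dm/- (SE 0.16, adjusted p = 0.016 or less). Counts per gene do not tell spliced from unspliced Xbp1, so these are levels of both forms together. Without fl/fl 4 days replicate 1 the D164A/- call was lost (adjusted p = 0.10), and without any of 3 libraries that of dm/fl, of which the library that stood apart is 1 (-0.36 without it, adjusted p = 0.10). Split by time, the Xbp1 call of D164A/- was lost within the 3-day libraries. Those of D164A/fl and dm/fl were lost within the 4-day libraries, and that of dm/- was kept at both times. Atf6 was lower in D164A/- (-1.17, adjusted p = 0.0029), as were Ern1 (-0.65, adjusted p = 0.048) and Eif2ak3 (-0.44, adjusted p = 0.013). Eif2ak3 was also lower in dm/fl (-0.54, adjusted p = 0.0024), by the same -0.54 without the library that stood apart. In D164A/- the Ern1 call was lost without any of 7 of the 8 libraries and that of Eif2ak3 without any of 3 (up to adjusted p = 0.085) and with GC trends removed (adjusted p = 0.20).

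Of the ATF4 genes, Asns was lower than in fl/fl in 4 lines. It held 804, 405, 1049.5 and 304 CPM in fl/fl, 158, 159, 177 and 162 CPM in D164A/- and 1079.8, 1105, 482 and 544 CPM in dm/-, with D164A/- below fl/fl throughout and dm/- overlapping with it. The differences were -1.79 in D164A/- (SE 0.34, adjusted p = 6.8e-05), -1.78 in dm/fl, -1.46 in ΔC/fl and -1.33 in ΔC/-, each of which held without any single library, that of dm/fl at -1.52 without the one that stood apart. The Asns calls in dm/fl and ΔC/- were lost when fitted on the compared samples alone. Within the 3-day libraries those in ΔC/fl and ΔC/- were lost. Ddit3 was higher in D164A/fl (2.20, SE 0.70, adjusted p = 0.015), ΔC/- (2.46, adjusted p = 0.0048) and dm/- (2.88, adjusted p = 0.0015). In fl/fl the 4 libraries held 13.6, 4.03, 88.1 and 8.65 CPM, so that 4 days replicate 1 alone reached the level of the other lines. The dm/- call held without any single library but was lost within the 4-day libraries alone. Without fl/fl 4 days replicate 2 the adjusted p was 0.18 in D164A/fl and 0.075 in ΔC/-. Ppp1r15a was higher in the same 3 lines (2.13, 1.89 and 1.97), and without that fl/fl library the adjusted p ran from 0.22 to 0.28. Chac1 and Trib3 were higher in dm/- (2.05, adjusted p = 0.0050 and 1.70, adjusted p = 0.047), and Trib3, Atf3 and Atf4 were lower in dm/fl (-1.80, -1.76 and -0.86). The Chac1 call was lost without either of 2 libraries and that of Trib3 in dm/- without any of 6 (up to adjusted p = 0.065 and 0.35). In dm/fl the Trib3 and Atf3 calls were lost without any of 5 libraries and that of Atf4 without any of 3 (up to 0.25, 0.23 and 0.13), while without the library that stood apart they stood at -2.49, -2.02 and -0.92. Within the 3-day libraries Trib3 differed by -0.58 in dm/fl (adjusted p = 0.64).

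The fl/fl libraries of 4 days moved these counts, and so did 2 libraries of dm/fl. Without replicate 2 the calls against fl/fl dropped from 10 to 3 in D164A/fl (29.8% of all genes called with all libraries) and from 16 to 6 in dm/- (33.4%), and without replicate 1 the D164A/fl calls went to 17. At 4 days replicate 1 of fl/fl was above replicate 2 for 8 of 8 ATF4 genes, by a median of 2.24 on the log2 scale. In dm/fl the 11 calls (39.8%), all lower, became 6 without dm/fl 4 days replicate 2 and 16 without dm/fl 3 days replicate 2. Without the library that stood apart they were 10, again all lower. Of the 11 named dm/- calls 9 were lost within the 4-day libraries alone (Chac1, Ddit3, Derl1, Dnajb11, Dnajc3, Edem1, Kdelr3, Pdia3 and Ppp1r15a). Within the 3-day libraries 1 was lost, Kdelr3. Fitted on the compared samples alone, 7 of 9 named dm/fl calls were lost (Asns, Atf3, Eif2ak3, Hspa5, Pdia3, Trib3 and Xbp1). In ΔC/- 4 of 9 were then lost (Asns, Calr, Ddit3 and Ppp1r15a), in D164A/fl 3 of 9, and in each other line 1.

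Each /- line was compared with the /fl line of the same mutant allele, untreated, with 4 libraries on each side. Loss of the floxed allele cannot be told apart here from other differences between the lines compared. Of 99 member-by-allele pairs 40 were called, 27 higher and 13 lower in the deleted line, beside 25.9% of all gene-by-allele pairs, 12.7% higher and 13.2% lower. The 3 alleles gave unlike results. In D164A cells 14 of 33 members were called (18.8% of all genes), 4 higher and 10 lower. In ΔC cells 6 were called (25.3% of all genes), all higher. In dm cells 20 were called (33.7% of all genes), 17 higher and 3 lower. The ATF4 genes lay below 0 for 8 of 8 in D164A (median -2.03), above 0 for 8 of 8 in ΔC (median 1.10) and above 0 for 8 of 8 in dm (median 2.70), beside a median over all genes of -0.01, 0.00 and -0.01.

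**Figure D2:**
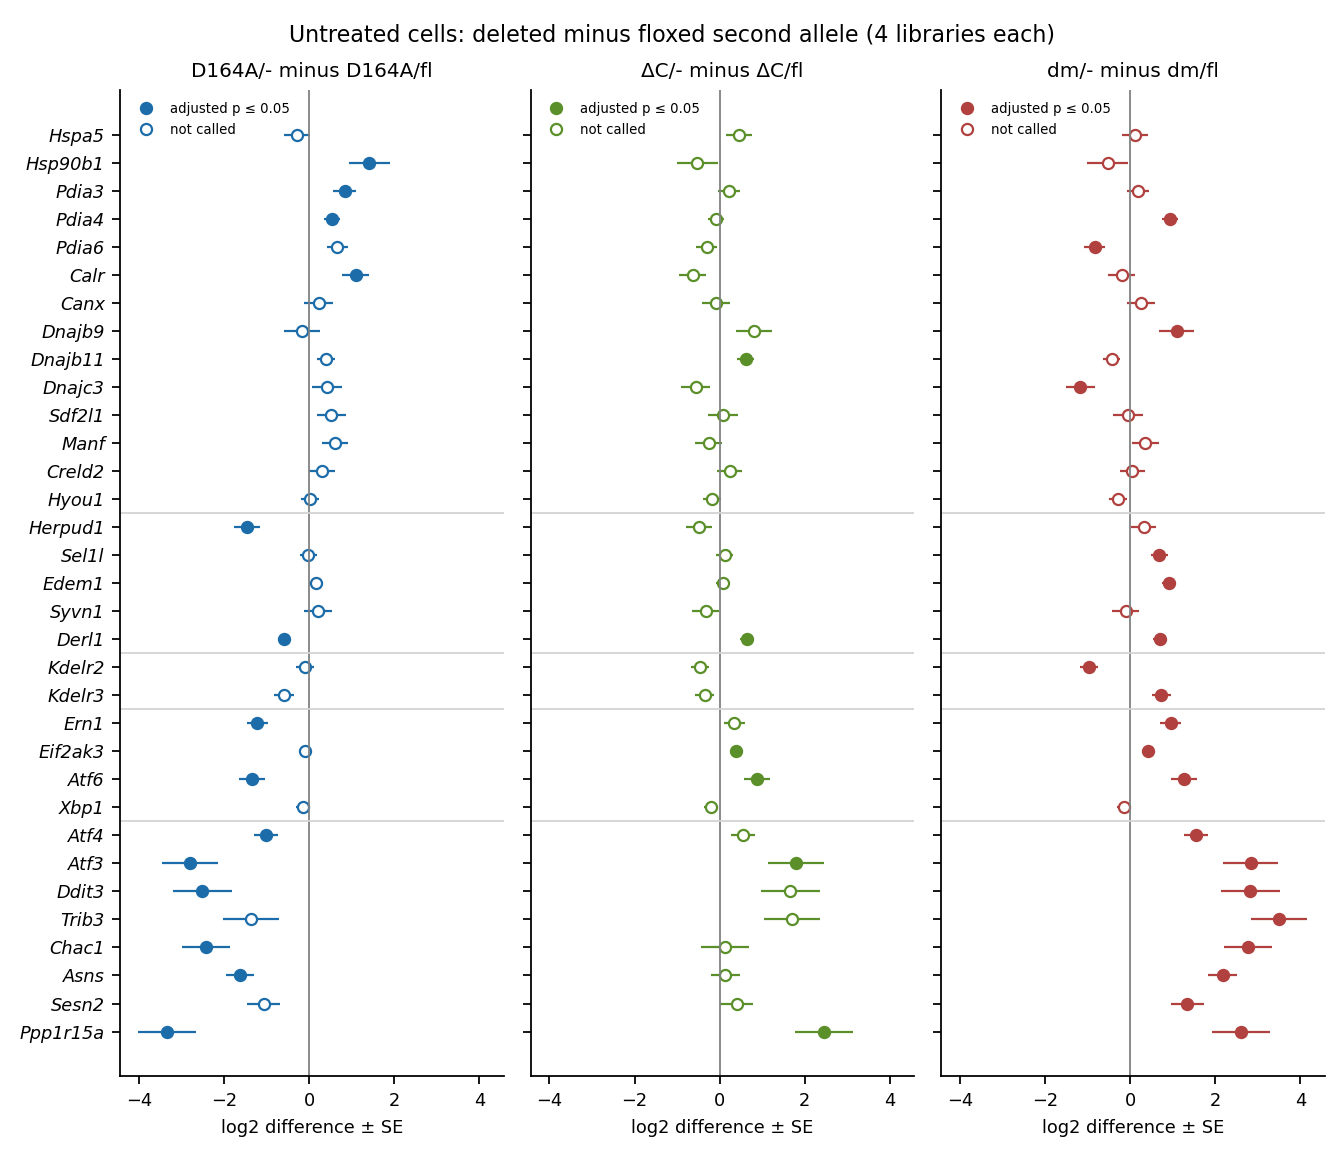
Deleted minus floxed second allele in untreated cells for the 33 tested members (rows, by role) in the D164A, ΔC and dm panels, as log2 difference of CPM + 1 with bars of 1 SE, from 4 libraries per line. The ATF4 genes lie left of 0 for D164A, from -3.34 to -1.01, and right of 0 for dm, from 1.34 to 3.50.

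In D164A cells the ATF4 targets were lower in the deleted line. Ppp1r15a held 130.4, 51.9, 653 and 332 CPM in D164A/fl and 14.3, 27.7, 18.6 and 15.7 CPM in D164A/-. Atf3 held 90.4, 35.5, 156 and 108 CPM and 12.1, 22.0, 5.91 and 10.9 CPM, and Ddit3 held 59.1, 37.2, 115 and 105 CPM and 9.59, 14.5, 12.2 and 11.3 CPM. For each of these genes all deleted values lay below all floxed values. The differences were -3.34, SE 0.69, adjusted p = 0.00043 for Ppp1r15a, -2.80, SE 0.65, adjusted p = 0.0018 for Atf3 and -2.51, SE 0.70, adjusted p = 0.0086 for Ddit3. Chac1 (-2.43), Asns (-1.62) and Atf4 (-1.01), named after their values were seen, were also lower without overlap, which brought the count to 6 of 8. edgeR called 7 of 8. The calls held without any single library, except that of Atf4 (adjusted p = 0.052 without 1 library).

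The calls came with the 4-day cells. Within the 4-day libraries Ppp1r15a differed by -4.69, adjusted p = 0.00041, Atf3 by -3.86, adjusted p = 0.0020 and Ddit3 by -3.12, adjusted p = 0.019, and 14 members were called (22.3% of all genes). Within the 3-day libraries the 3 genes differed by -1.99, -1.74 and -1.90 (adjusted p = 0.48 to 0.59), and only Xbp1 and Herpud1 were called (4.1% of all genes). Over the untreated and treated conditions together, Ppp1r15a held 14.3 to 30.5 CPM (median 18.8) in the deleted and 50.3 to 653 CPM (median 231) in the floxed libraries, 8 of each. Both deleted replicates lay below both floxed replicates in 4 of 4 conditions for Ppp1r15a, Atf3, Ddit3, Chac1, Asns and Atf4. For Trib3 and Sesn2 this was so in 3 conditions, and in 1 both deleted replicates lay above. Outside the ATF4 genes the same held in 4 of 4 conditions for Herpud1 and Kdelr3, and the reverse for Calr and Manf. The share over all genes was not counted.

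Outside the ATF4 genes, deletion in D164A cells went with lower Herpud1 (-1.45, SE 0.30, adjusted p = 0.00050), whose 4 values were 77.9, 84.1, 84.4 and 78.1 CPM in D164A/fl and 24.0, 31.7, 29.4 and 31.5 CPM in D164A/-, far apart in both times. Atf6 (-1.35, adjusted p = 0.0014), Ern1 (-1.21, adjusted p = 0.00049) and Derl1 (-0.59, adjusted p = 0.0030) were lower as well, although their ranges overlapped, and all 4 calls held without any single library. The chaperones went the other way. Hsp90b1 (1.41, adjusted p = 0.037), Calr (1.09, adjusted p = 0.0098), Pdia3 (0.83, adjusted p = 0.022) and Pdia4 (0.53, adjusted p = 0.045) were higher in D164A/-. Hsp90b1 held 672, 364, 643 and 599 CPM in D164A/fl and 1887, 525, 2339.7 and 2035 CPM in D164A/-, where 3 days replicate 2 lay within the range of the floxed cells. Each of these 4 calls was lost without at least 1 library, Calr without 1 of 8 (adjusted p = 0.076), Pdia3 without 5 (0.13), Hsp90b1 without 6 (0.28) and Pdia4 without any of the 8 (0.16). The fibroblast marker sum was 54.3 to 68.6 CPM in D164A/fl and 70.4 to 105 CPM in D164A/-, and the immune sum was at most 5.59 CPM in both. Their part in the result was not tested. Fitted on the compared samples alone, Derl1 and Hsp90b1 were no longer called.

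In ΔC cells few members differed. Derl1 held 147, 189, 158 and 132 CPM in ΔC/fl and 239.9, 259, 239.7 and 229 CPM in ΔC/-, without overlap, and rose by 0.63, SE 0.14, adjusted p = 0.0011, a call that held without any single library. Ppp1r15a held 13.6, 29.7, 67.6 and 27.4 CPM and 211, 34.9, 399 and 253 CPM, with overlap through 3 days replicate 2, and differed by 2.45, SE 0.69, adjusted p = 0.0073. Without ΔC/- 3 days replicate 1 its adjusted p was 0.092 and the count dropped from 6 to 2, and without replicate 2 of that time the count was 10. Atf3, Atf6, Dnajb11 and Eif2ak3 (1.79, 0.88, 0.61 and 0.39) were each lost without any of 5 or 6 of the 8 libraries. Fitted on the compared samples alone, Derl1 was the only member of the 6 still called. Split by time, the Derl1 call was lost within the 3-day libraries and kept within the 4-day libraries. The median of the chaperones was -0.09. The fibroblast sum was 107 to 745 CPM in ΔC/fl and 8.29 to 9.98 CPM in ΔC/-, and the immune sum 4.38 to 13.2 CPM and 19.3 to 80.7 CPM. Their part in the result was not tested.

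In dm cells all 8 ATF4 genes were higher in the deleted line. Trib3 held 83.6, 11.4, 15.7 and 17.6 CPM in dm/fl and 289, 320.1, 316 and 179.7 CPM in dm/-. Atf3 held 13.9, 6.18, 12.4 and 9.05 CPM and 142, 54.5, 81.2 and 56.6 CPM, and Ddit3 held 39.4, 6.76, 15.1 and 13.7 CPM and 142, 74.0, 141 and 120.0 CPM. All deleted values lay above all floxed values of each gene. The differences were 3.50, SE 0.67, adjusted p = 8.2e-05 for Trib3, 2.83, SE 0.65, adjusted p = 0.00081 for Atf3 and 2.82, SE 0.70, adjusted p = 0.0017 for Ddit3. The other 5 ranged from 1.34 for Sesn2, whose ranges overlapped, to 2.78 for Chac1, with Asns at 2.18 and Atf4 at 1.54, and edgeR called all 8. Without the library that stood apart all 8 were still called, with Trib3 at 4.19, Ddit3 at 3.42, Atf3 at 3.10 and Sesn2 at 1.91. The Sesn2 call was lost without dm/fl 3 days replicate 2 (adjusted p = 0.094). Split by time, Trib3 and Atf3 were called at both times, and Ddit3 at 4 days but not at 3 days. edgeR called 4 of the 8 ATF4 genes higher within the 3-day libraries and all 8 within the 4-day libraries. Across all conditions Trib3 held 54.5 to 711 CPM (median 256) in the deleted and 10.7 to 83.6 CPM (median 16.0) in the floxed libraries, 8 of each, and both deleted replicates were above both floxed replicates in 4 of 4 conditions for Trib3, Atf4, Atf3 and Ddit3. Outside the ATF4 genes the same held for Pdia4, Edem1, Derl1 and Atf6, and the reverse for Pdia6 and Kdelr2. The share over all genes was not counted.

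**Figure D3:**
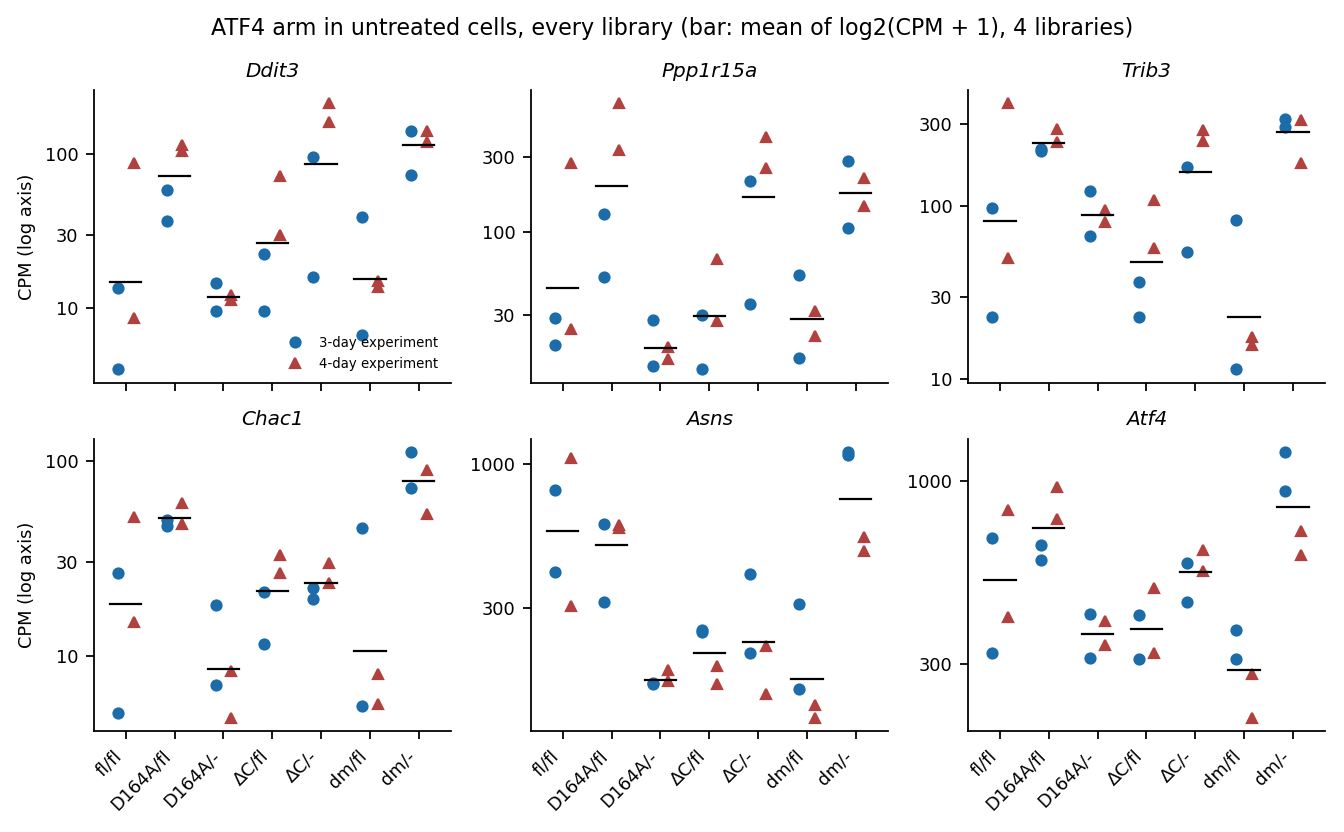
Level of Ddit3, Ppp1r15a, Trib3, Chac1, Asns and Atf4 in each untreated library (CPM, log axis) by line, with circles for 3 days, triangles for 4 days and a bar at the mean of log2(CPM + 1) of the 4 libraries. For Ddit3 the dm/- points (74.0 to 142 CPM) lie above all dm/fl points (6.76 to 39.4 CPM), and the D164A/- points (9.59 to 14.5 CPM) lie below all D164A/fl points (37.2 to 115 CPM).

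Of the 4 sensor genes 3 were higher in dm/- than in dm/fl. Atf6 held 79.0, 119, 165 and 127 CPM in dm/fl and 383, 220.1, 266 and 299 CPM in dm/- (1.27, SE 0.31, adjusted p = 0.0014), and Ern1 held 37.9, 29.03, 30.8 and 32.7 CPM and 74.4, 48.1, 64.9 and 70.5 CPM (0.95, adjusted p = 0.0034), both without overlap. Eif2ak3 was higher by 0.43, adjusted p = 0.017, a call lost without any of 3 libraries (up to adjusted p = 0.11), and Xbp1 differed by -0.15, adjusted p = 0.52. Among the degradation genes Edem1 (0.92, adjusted p = 3.3e-05) and Derl1 (0.69, adjusted p = 0.00027) were higher without overlap. The chaperones were split. Pdia4 was higher (0.94, adjusted p = 0.00014), while Dnajc3 (-1.17, adjusted p = 0.0084) and Pdia6 (-0.84, adjusted p = 0.0092) were lower, and the median of the 14 was 0.00. The Dnajc3 call was lost without dm/fl 3 days replicate 2 (adjusted p = 0.063) and that of Pdia6 without dm/- 3 days replicate 1 (adjusted p = 0.053). Kdelr2 was lower (-0.96, adjusted p = 0.00048). Without the library that stood apart these calls were all kept, with Pdia4 at 0.64, Edem1 at 0.62, Derl1 at 0.74, Dnajc3 at -1.50, Pdia6 at -0.71, Kdelr2 at -0.87, Atf6 at 1.12, Ern1 at 1.04 and Eif2ak3 at 0.43. Dnajb9 (1.09), Sel1l (0.69) and Kdelr3 (0.73) were called higher only with the library that stood apart, and without it they stood at 0.50, 0.47 and 0.47 (adjusted p = 0.37, 0.067 and 0.11). Dnajb11 was then called lower (-0.83), and the count was 18, 14 higher and 4 lower. Kdelr3 overlaps with Ddx17, which was itself higher (0.66), so its reads may be shared where strand was not used. Fitted on the compared samples alone, Pdia4, Edem1, Dnajc3, Eif2ak3, Dnajb9, Sel1l and Kdelr3 were no longer called, while Trib3, Atf3, Ddit3, Atf6 and Ern1 were. Within the 3-day libraries the calls of Ern1, Eif2ak3, Dnajc3, Pdia6, Dnajb9 and Kdelr3 were lost. Within the 4-day libraries those of Atf6, Eif2ak3, Pdia4, Pdia6, Dnajb9, Sel1l and Kdelr3 were lost. The fibroblast sum was 125 to 537 CPM in dm/fl and 6.56 to 11.05 CPM in dm/-, and the immune sum, mainly Csf1r, 292 to 533 CPM and 42.7 to 88.0 CPM. Their part in the result was not tested.

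The difference between deleted and floxed lines was then compared between the 3 alleles in 1 test. It differed for 20 of the 33 members, beside 44.1% of all genes, and for all 8 ATF4 genes. The largest ranges over the alleles were those of Ppp1r15a (-3.34 to 2.61, adjusted p = 3.6e-06), Atf3 (-2.80 to 2.83, 1.2e-05) and Ddit3 (-2.51 to 2.82, 8.5e-05). Of the chaperones Hsp90b1, Calr and Dnajc3 had the largest ranges (-0.53 to 1.41, -0.64 to 1.09 and -1.17 to 0.41). Those of Hsp90b1 and Dnajc3 were lost without any of 4 and 7 of the 24 libraries. Atf6 and Ern1 differed among the sensors (-1.35 to 1.27 and -1.21 to 0.95), Herpud1, Derl1 and Edem1 among the degradation genes (-1.45 to 0.32, -0.59 to 0.69 and 0.08 to 0.92) and Kdelr3 among the retrieval receptors (-0.59 to 0.73).

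Other targets of ATF4 gave counts in the same directions in D164A and dm. They came from a list of 30, of which 29 were tested. Amino acid transporters, tRNA synthetases and serine and proline synthesis genes were among them, beside genes of other kinds. In D164A 19 of 29 were lower and 0 higher, with a median of -1.15, beside 18.8% of all genes called either way, led by Pycr1 (-2.24) and Slc7a11 (-2.09). In dm 17 of 29 were higher and 0 lower, with a median of 0.94, beside 33.7% of all genes, led by Vldlr (2.57) and Gpt2 (2.57). In ΔC 2 were higher and 3 lower, beside 25.3% of all genes. Of 30 other ER folding genes 12 were lower and 2 higher in dm/- than in dm/fl, again beside 33.7%, with Fkbp11 (-2.98), a prolyl isomerase, and Wfs1 (-1.45) lowest.

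TGFβ raised a small set of members over the 7 lines. Calr, Pdia3, Pdia4, both retrieval receptors, Eif2ak3 and Xbp1 were higher in treated cells, 7 of 33 members, and 0 were lower. Among all genes 28.8% were called, 14.6% higher and 14.2% lower. edgeR also called 7 members higher. The 14 chaperones all lay above 0, from 0.04 to 0.59 with a median of 0.18, beside a median of -0.02 over all genes. The ATF4 genes lay below 0 for 7 of 8, with a median of -0.23. None of the 8 was called by limma or by edgeR, and 0 had an unadjusted p under 0.05. The same held for the 5 tested degradation genes, whose median was 0.03.

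Pdia4 held 156 to 409 CPM in the 14 untreated 4-day libraries and 237 to 545 CPM in the 14 treated ones. Within each line both treated replicates were above both untreated ones, except in fl/fl, where 382 CPM after treatment lay below 409 CPM before. The mean difference was 0.54, SE 0.10, adjusted p = 7.5e-05. Calr moved from 513 to 1642 CPM to 696 to 1908 CPM (0.59, SE 0.16, adjusted p = 0.0062), with the largest step in dm/- from 619.6 and 698 to 1216 and 1114 CPM. Pdia3 differed by 0.43, SE 0.14, adjusted p = 0.019 and was lost without fl/fl untreated 4 days replicate 1 (adjusted p = 0.050). Pdia6 (0.35, adjusted p = 0.051), Hyou1 (0.28, adjusted p = 0.069) and Manf (0.39, adjusted p = 0.081) did not pass.

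Kdelr3 had the largest mean difference of all members (1.00, SE 0.12, adjusted p = 7.2e-08). In fl/fl it went from 6.80 and 6.85 to 23.6 and 32.3 CPM and in ΔC/fl from 13.9 and 8.41 to 53.0 and 45.7 CPM. In D164A/fl it went only from 11.4 and 10.2 to 14.1 and 13.0 CPM. These were differences of 1.87, adjusted p = 8.9e-05 in fl/fl, 2.08, adjusted p = 1.9e-05 in ΔC/fl and 0.31, adjusted p = 0.81 in D164A/fl. The response differed between the lines (adjusted p = 0.0093, range 0.31 to 2.08, 18.3% of all genes), and did so without any single library. Ddx17, which overlaps with Kdelr3, had a mean difference of 0.08 (adjusted p = 0.47). Kdelr2 rose by 0.39, SE 0.11, adjusted p = 0.0072.

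Eif2ak3 rose by 0.60, SE 0.07, adjusted p = 1.2e-07, from 39.8 to 86.7 to 58.8 to 162 CPM. In fl/fl it went from 71.3 and 59.8 to 162 and 131 CPM (1.14, adjusted p = 9.9e-05) and in D164A/- from 45.6 and 46.2 to 95.3 and 82.2 CPM (0.93, adjusted p = 0.0020). The latter call was lost without D164A/- TGFβ replicate 1 (adjusted p = 0.052). A difference between lines was not called (adjusted p = 0.10). Xbp1 rose by 0.25, SE 0.08, adjusted p = 0.021 on average, a call lost without any of 5 of the 28 libraries (up to adjusted p = 0.059). In dm/- it went from 54.8 and 75.6 to 117 and 119 CPM (0.86, adjusted p = 0.010, lost without 3 of its 4 libraries), and in D164A/- from 174 and 184 to 103 and 130.0 CPM (-0.62, adjusted p = 0.12). The difference between lines was called (adjusted p = 0.0087, range -0.62 to 0.86), and was lost without D164A/- TGFβ replicate 1 (0.057).

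**Figure D4:**
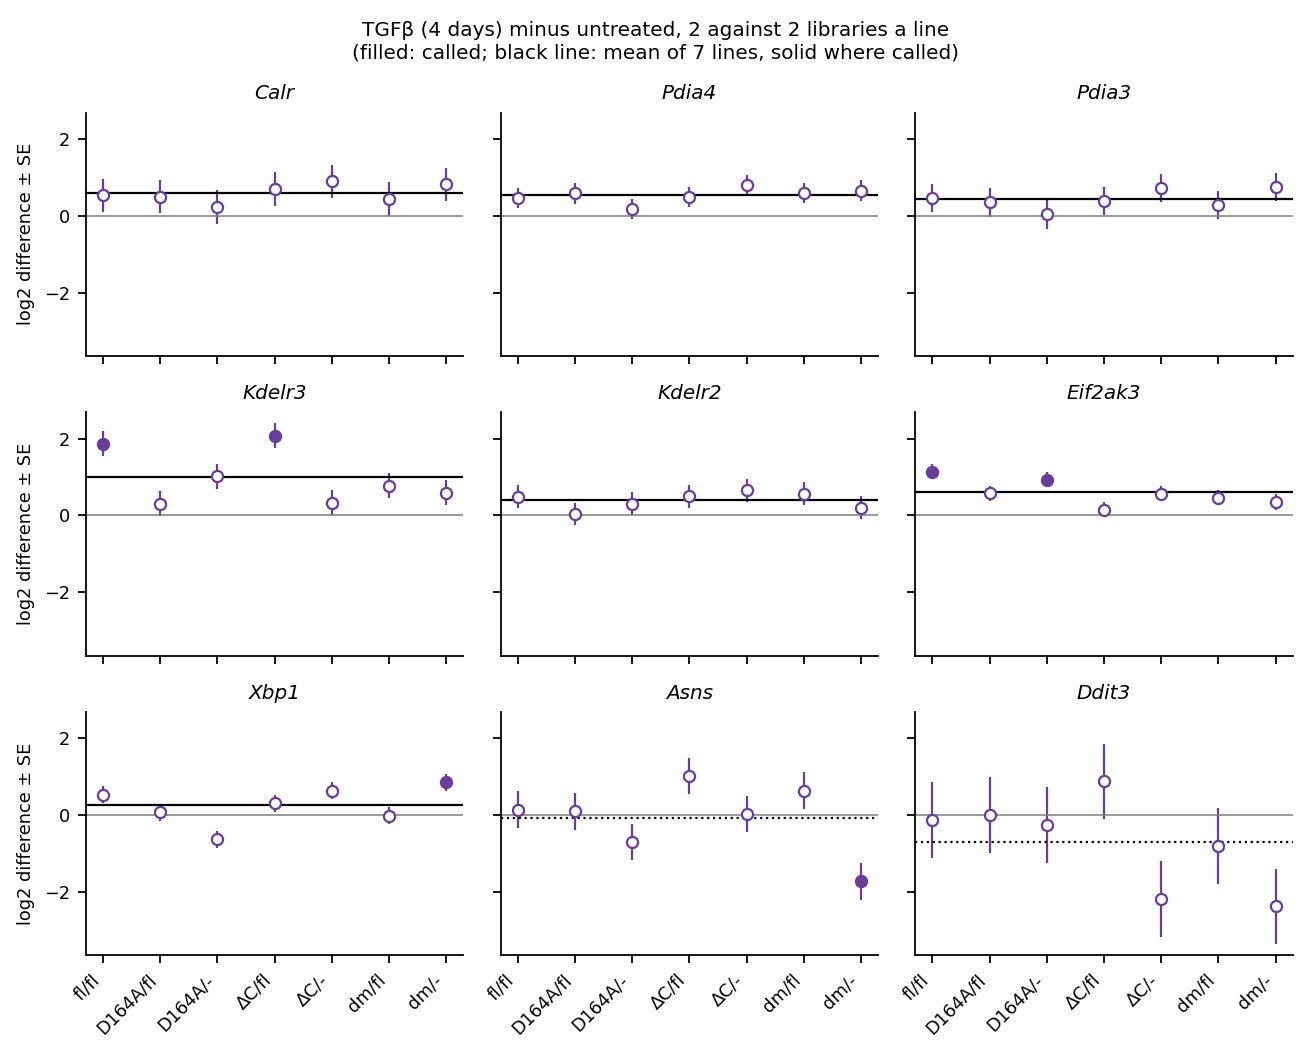
TGFβ-treated minus untreated 4-day cells for 9 members in each of the 7 lines, as log2 difference of CPM + 1 with bars of 1 SE (2 libraries on each side), and a black line at the mean of the 7 lines. Kdelr3 lies above 0 in every line, from 0.31 to 2.08, while Asns runs from -1.73 in dm/- to 1.02.

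Line by line 6 of 231 pairs were called, beside 8.13% of all gene-by-line pairs. Besides the 4 for Kdelr3 and Eif2ak3 and that of Xbp1 in dm/-, the remaining call was Asns in dm/-. It fell from 482 and 544 to 150.5 and 158 CPM (-1.73, SE 0.48, adjusted p = 0.019), a call lost without any of its 4 libraries (up to adjusted p = 0.15). In ΔC/fl Asns went from 183 and 158 to 572 and 209 CPM. The difference between lines was called for Asns (adjusted p = 0.046) but was lost without any of 22 of the 28 libraries. In dm/- all 8 ATF4 genes lay below 0 with TGFβ (median -1.83), of which 1 was called (8.01% of all genes) and 6 had an unadjusted p under 0.05. Ddit3 there went from 141 and 120.0 to 33.2 and 17.6 CPM (-2.38, adjusted p = 0.16), without overlap. In ΔC/- Ddit3 went from 214 and 162 to 36.0 and 44.9 CPM (-2.19, adjusted p = 0.20). Fitted on the compared samples alone, the calls of Kdelr3, Eif2ak3 and Xbp1 in single lines were lost (adjusted p = 0.058 to 0.11). In ΔC/fl all 8 ATF4 genes lay above 0 (median 0.91), none was called (10.1% of all genes) by limma or edgeR, and 2 had an unadjusted p under 0.05.

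The genes for collagen folding moved further than the chaperones. Of 12 tested, 10 rose with TGFβ and 0 fell, where 14.6% of all genes rose and 14.2% fell, with a median of 0.85, led by the prolyl isomerase Fkbp14 (1.37, adjusted p = 3.7e-08) and the prolyl hydroxylase P3h1 (1.09, adjusted p = 3.2e-06). Of 30 other ER folding genes 9 rose, led by Pdia5 (1.04) and Txndc5 (0.82), and 2 fell, the oxidases Ero1lb (-0.57) and Ero1l (-0.55). Of 12 cytosolic chaperones 3 rose, led by Hspb1 (0.93). Of 29 other ATF4 targets 3 rose and 3 fell, with Ddit4 (0.70) and Psat1 (-0.62) at the ends, a share each way below that of all genes. The fibroblast marker sum had a median of 65.2 CPM in untreated 4-day and 84.5 CPM in TGFβ-treated libraries, and its part was not tested.

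Wnt3a moved a single member over the 7 lines. Xbp1 rose by 0.45, SE 0.08, adjusted p = 0.00056, 1 of 33 members beside 3.52% of all genes, and edgeR also called 1. The chaperones had a median of 0.03 and the ATF4 genes of -0.14, and in neither group was any called by limma or edgeR or did any have an unadjusted p under 0.05. Line by line 2 of 231 pairs were called, beside 1.1% of all pairs, and both were Xbp1 in D164A cells. In D164A/fl it went from 204 and 296 to 566 and 553 CPM (1.18, SE 0.22, adjusted p = 0.00034) and in D164A/- from 135 and 139.5 to 313 and 333 CPM (1.23, SE 0.22, adjusted p = 0.0014). In both lines the treated replicates lay far above the untreated ones. The D164A/- call was lost without Wnt3a replicate 2 (adjusted p = 0.051). In fl/fl Xbp1 went from 116 and 121 to 179.5 and 143 CPM (0.43, adjusted p = 0.39), and in dm/-, where Axin2 stayed at or under 0.0791 CPM, from 79.7 and 75.8 to 71.3 and 77.4 CPM (-0.06). The response differed between the lines (adjusted p = 0.016, range -0.06 to 1.23, 2.39% of all genes), but was lost without any of 4 of the 28 libraries (up to 0.063) and was not called by edgeR. Fitted on the compared samples alone, the calls in D164A/fl and D164A/- were lost (adjusted p = 0.22 and 0.82) and the mean over lines was kept.

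**Figure D5:**
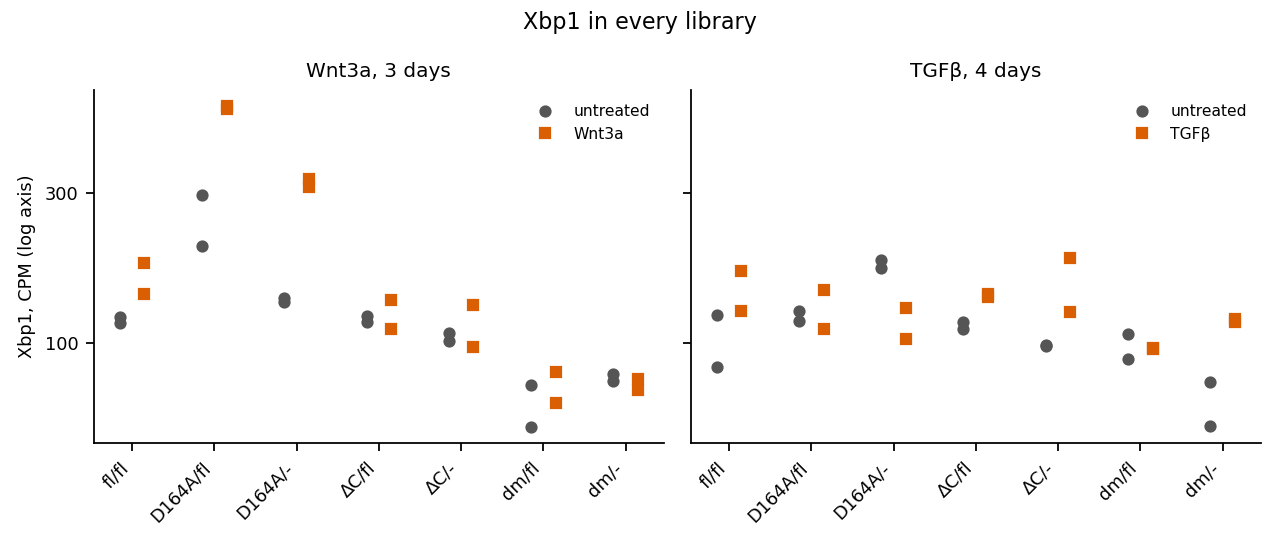
Level of Xbp1 in each library (CPM, log axis) by line, untreated and Wnt3a-treated at 3 days in the left and untreated and TGFβ-treated at 4 days in the right panel. The Wnt3a-treated D164A/fl points (566 and 553 CPM) are the highest of all 56 libraries, and in ΔC and dm lines the Wnt3a-treated points stay between 64.5 and 137 CPM.

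In D164A/fl cells the ATF4 genes lay below 0 with Wnt3a for 8 of 8 (median -1.27), but none was called by limma or edgeR (5.34% of all genes), and 4 had an unadjusted p under 0.05. Trib3 there went from 216 and 208 to 48.5 and 52.6 CPM (-2.05, adjusted p = 0.33) and Atf4 from 657 and 595 to 309.6 and 307 CPM, both without overlap. Kdelr3 in fl/fl went from 10.1 and 9.32 to 26.5 and 22.8 CPM (1.26, adjusted p = 0.084), also without overlap and not called. Of the other ER folding genes Txndc5, a disulfide isomerase, rose (0.81, adjusted p = 0.00014).

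Untreated cells of the 4-day experiment were compared with those of the 3-day experiment, which differed in the time in culture. Medium was recorded as renewed every second day in the TGFβ experiment and daily in the Wnt3a experiment. Whether the untreated cells of both were otherwise kept alike is not stated. Time in culture, medium schedule and experiment cannot be told apart. Of 33 members 4 were called, beside 15.7% of all genes. Dnajb9 (0.69, SE 0.22, adjusted p = 0.033), Ern1 (0.47, SE 0.13, adjusted p = 0.017) and Eif2ak3 (0.28, SE 0.07, adjusted p = 0.011) were higher and Kdelr2 was lower at 4 days (-0.38, SE 0.11, adjusted p = 0.021). Dnajb9 was lost without any of 14 of the 28 libraries, which include the one that stood apart, and Kdelr2 without any of 5. Ddit3 (0.99, adjusted p = 0.066) and Ppp1r15a (0.98, adjusted p = 0.064) did not pass, and edgeR called 3 members.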

How the data were processed

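RNA of 56 samples was sequenced from poly(A)-enriched, stranded TruSeq libraries. Per the study's methods and the submitters' processing notes, the authors mapped single-end reads to mm10 with STAR (unique hits; version not given in the sources used here) and counted RefSeq genes with QuasR. Whether counting used strand is not stated. The labels' treatment protocol names Pygo2 lines, while sample titles and mutation labels name the β-catenin lines used here, and labels and methods name different sequencers.

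The deposited signal is the authors' count per gene divided by an effective library size, called CPM: every value was a whole multiple of 1 read (tolerance 0.001 reads), with scaling factors of 0.809 to 1.14. Gene symbols were found for 20261 of 20314 IDs.

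Genes at 1 CPM or more in at least 2 samples (13754, with 33 members) were tested on log2(CPM + 1) with limma 3.58.1 in R 4.3.3 (28 condition means, trended variance, Benjamini-Hochberg adjustment over all genes, called at adjusted p of 0.05). Such fold changes understate those of low genes. The study's methods give edgeR and a 2-fold limit, which was counted as an alternative. The figure legend for its lists of differing genes gives a 1.5-fold limit, which was not counted. The whole reads were tested with edgeR 4.0.16. Other alternatives were a pseudocount of 0.1, no filter, median-of-ratios rescaling, the compared samples alone, a replicate block, removal of GC trends, single times and leaving out each library. On simulated counts of 13523 genes for the mean TGFβ comparison, limma recovered 94% of genes raised 2-fold and 42% of those raised 1.5-fold. The simulation gave every gene the same spread between replicates beyond counting error. These shares therefore do not carry over to genes with a large spread, such as Ddit3, Ppp1r15a, Trib3, Atf3 and Chac1.

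For each comparison and role, called members with up to the 3 largest increases and decreases were named, and of other lists up to 2 each way. Members, roles and lists were chosen with earlier results of these data known. The SE values come from the spread between libraries in the limma fit, while the floors in reads cover counting error only. Replicate numbers did not pair the samples in every condition.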

Additional observations from a re-analysis of the deposited data

Results flagged for a closer look

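For the following genes the treatment response differed between lines, or the deleted minus floxed difference between alleles. The test was of the difference itself (limma F test, adjusted p of 0.05 or less). The value given is the spread between the lowest and the highest log2 difference.

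Over the 7 lines the TGFβ response spread by 1.78 for Kdelr3, by 1.49 for Xbp1 and by 2.74 for Asns. The Wnt3a response spread by 1.29 for Xbp1, highest in D164A/- and lowest in dm/-.

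Over the 3 mutant alleles the difference between deleted and floxed cells spread furthest for the ATF4 genes, by 5.95 for Ppp1r15a, 5.63 for Atf3, 5.33 for Ddit3, 5.21 for Chac1, 4.87 for Trib3, 3.80 for Asns, 2.56 for Atf4 and 2.41 for Sesn2. Among the sensor genes it spread by 2.61 for Atf6 and 2.17 for Ern1. Among the chaperones it spread by 1.94 for Hsp90b1, 1.73 for Calr, 1.58 for Dnajc3, 1.50 for Pdia6, 1.05 for Dnajb11 and 1.04 for Pdia4. For degradation and retrieval genes the spread was 1.77 for Herpud1, 1.32 for Kdelr3, 1.28 for Derl1 and 0.84 for Edem1. For all 8 ATF4 genes D164A was the lowest of the 3 alleles. The comparison of alleles was added after the data had been seen.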

How the results depend on the processing

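Of 103 named results, 0 reversed under any of 2125 alternative values. Of these, 1801 kept their side of the threshold and 324 did not, 171 of the latter among the 1032 that left out 1 library. The cause of the shifts below was not tested.

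Replicate numbers correlated in 12 of 14 untreated-treated pairs and not in the other two (-0.20 and -0.07), and no label ties them to a shared culture or day, so that they were not taken to pair the samples. With the number as a replicate block, the count of called members went from 7 to 13 for the mean TGFβ response, from 1 to 2 for Wnt3a, from 6 to 43 and from 2 to 11 line by line, from 3 to 12 and from 1 to 2 for differences between lines, and from 4 to 8 between times. With GC trends removed these counts were 11, 2 and 18 for TGFβ mean, Wnt3a mean and TGFβ by line, 6 for the TGFβ difference between lines and 7 between times. With the block and GC trends removed together they were 19, 7, 67, 15, 19, 10 and 12, in the order of the block counts. Without the 4 libraries of steepest GC trend, chosen after seeing the data, the TGFβ mean gave 11, TGFβ by line 23, its difference between lines 6 and the times 12. The compared samples alone gave 12 for the TGFβ mean, 0 for Wnt3a by line, 7 and 0 for the differences between lines, 40 for lines against fl/fl and 2 between times. edgeR gave 0 for the Wnt3a difference between lines. A 2-fold limit gave 0 for both means and the times, 27 for lines against fl/fl and 24 for deletion. The 4-day libraries alone gave 32 against fl/fl and the 3-day libraries alone 14 for deletion.

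Leaving out each library moved the counts to 5 to 9 for the TGFβ mean, 1 to 3 for Wnt3a, 4 to 8 and 1 to 17 line by line, 1 to 3 and 0 to 9 for differences between lines, 26 to 31 for levels between lines, 40 to 74 against fl/fl, 35 to 45 for deletion, 18 to 24 between alleles and 2 to 9 between times. The values 17, 9, 74 and 24 came without dm/fl untreated 3 days replicate 2, which leaves the library that stood apart as the lone one of its condition, and 40 without fl/fl untreated 4 days replicate 2.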
